A study of Danio rerio with 18 samples.

Results

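The genes described here encode the NADPH oxidases, the enzymes that cells use to make reactive oxygen species on purpose. The names searched were *cybb*, *cyba*, *ncf1*, *ncf4*, *duox*, *nox1* and *nox4*, which belong together by their known function. Of the 7 names, 6 matched a gene among the 31953 genes in the files, by symbol in any letter case, and *nox4* was not analysed here. The expression was measured by translating ribosome affinity purification (TRAP), which pulls EGFP-labelled L10a ribosomes out of whole larvae and sequences the transcripts bound to them. All larvae were zebrafish at 3 days post-fertilization, injected at the one-cell stage with a Krt4-driven construct, so that keratinocytes carried either oncogenic HRasG12V or the HRas control. The tag was driven by Lyzc in a transgenic line for neutrophils, by mpeg1 in a transgenic line for macrophages, and by a second injected Krt4 plasmid in wild-type larvae for keratinocytes. HRasG12V and HRas control therefore differ in the keratinocytes in all groups. Confinement of the constructs to keratinocytes rests on the Krt4 promoter, and their expression in neutrophils or macrophages was not tested here. Injected plasmids are expressed in a mosaic of cells, and each library pools about 50 larvae.

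NADPH oxidases move electrons from NADPH across a membrane to oxygen. In phagocytes the membrane part is a heterodimer of the catalytic subunit *cybb* and its partner *cyba*, and it stays inactive until cytosolic subunits, among them *ncf1* and *ncf4*, and the small GTPase Rac2 join it. Dual oxidase, encoded by *duox*, makes hydrogen peroxide without those cytosolic subunits, and in zebrafish larvae it is known as the epithelial source of the hydrogen peroxide that draws leukocytes to a wound. In mammals, Nox1 is a relative of the phagocyte enzyme that is best known from the gut.

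There were 6 groups of 3 libraries, 1 per batch. Macrophage HRas control replicate 3 held 16990 counts and 0 counts of every one of the 6 genes, and it was left out, which leaves 17 libraries with totals between 6206924 and 14781123. In each, 10 features took up 72.4% to 94.7% of the total. The 9 macrophage markers summed to between 31.9 and 66.0 CPM (counts scaled to the TMM-normalised library size) in macrophage libraries. Their sum was between 6.17 and 8.17 CPM in neutrophil libraries and between 6.79 and 10.6 CPM in keratinocyte libraries. The 4 neutrophil markers summed to between 26.5 and 62.6 CPM in neutrophil HRasG12V libraries and between 2.86 and 23.7 CPM in neutrophil HRas control libraries. The lowest of these, neutrophil HRas control replicate 3, lay within the range of the keratinocyte libraries (1.81 to 9.86 CPM), and *lyz*, the lysozyme of neutrophils, was at 2.08 CPM there, against 14.3 and 14.7 CPM in the other HRas control libraries. Keratinocyte markers were present in every library, with 793 to 1657 CPM in neutrophil libraries, 1173 to 2577 CPM in macrophage libraries and 3161 to 5259 CPM in keratinocyte libraries.

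All 6 genes were rare. Over the 17 libraries *ncf1* had 832 counts, *cybb* 254, *ncf4* 164, *cyba* 154, *duox* 34 and *nox1* 18. The first 4 passed edgeR's filter on low counts and were tested among 16011 genes, while *duox* and *nox1* did not pass it. A gene that passes such a filter through the group where it is high is already likely to differ, so the number that passed is no result. RSEM divides reads that fit several genes, and the deposited counts of *cybb* were not whole numbers in 14 of the 16 libraries where it was above 0, so some of its reads were shared with other sequences. The counts of *cyba* and *nox1* were whole in every library.

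**Figure D1:**
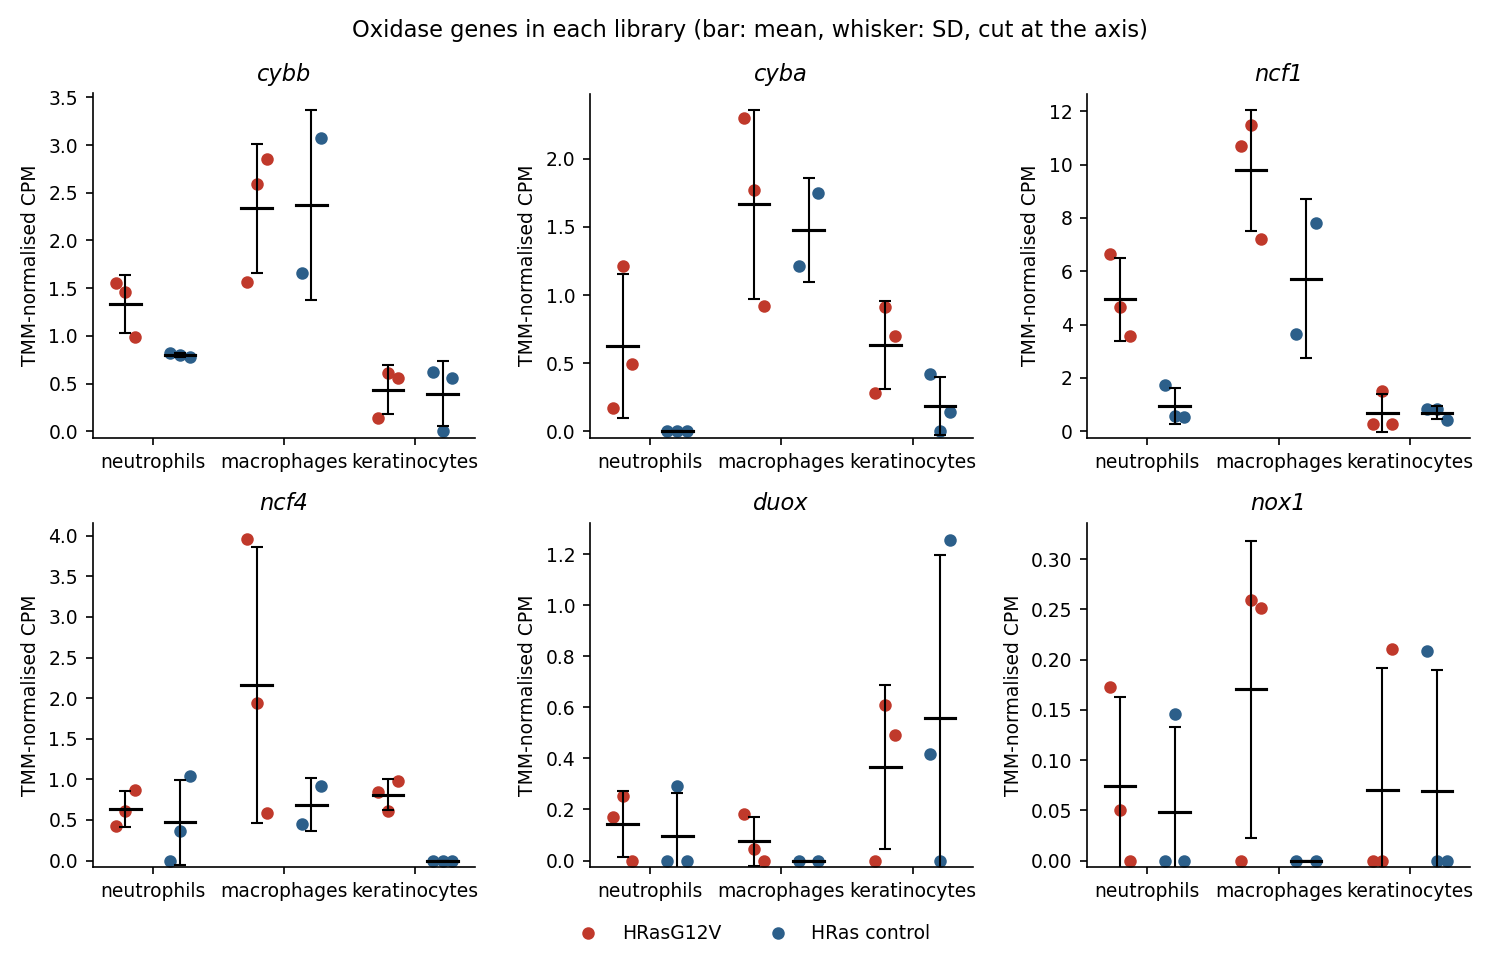
Expression of the 6 genes in each library, in TMM-normalised CPM, with HRasG12V (red) left of HRas control (blue) in each cell type, and bars for the mean and whiskers for the SD, cut at the axis (3 libraries a group, 2 for macrophage HRas control). The 3 neutrophil HRasG12V libraries lie at 3.58 to 6.63 CPM of *ncf1*, all above the 3 HRas control libraries at 0.520 to 1.74 CPM, and *duox* is highest in a keratinocyte HRas control library at 1.26 CPM.

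The phagocyte oxidase genes had their highest means in macrophages. Per unit of transcript length, neutrophil libraries averaged 1.45 CPM per kilobase of *ncf1*, 0.387 of *cyba*, 0.317 of *cybb* and 0.263 of *ncf4* (means of 6 libraries). In macrophage libraries the same per-length levels were 4.02 for *ncf1*, the highest of the 6 genes in any cell type, 1.56 for *cyba*, 0.818 for *cybb* and 0.769 for *ncf4* (means of 5 libraries). In keratinocyte libraries they were 0.401 for *cyba*, the highest of the 6 genes there, 0.343 for *ncf1*, 0.277 for *ncf4* and 0.122 for *cybb* (means of 6 libraries). Per length, the keratinocyte means of *cyba* and *ncf4* were thus not below the neutrophil means. In CPM, without division by length, this held for *cyba* (0.409 in keratinocyte and 0.313 in neutrophil libraries). It did not hold for *ncf4* (0.406 CPM in keratinocyte and 0.551 CPM in neutrophil libraries). *duox* had a per-length mean of 0.0239 in neutrophil libraries and 0.00908 in macrophage libraries, against 0.0923 in keratinocyte libraries, its highest.

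**Figure D2:**
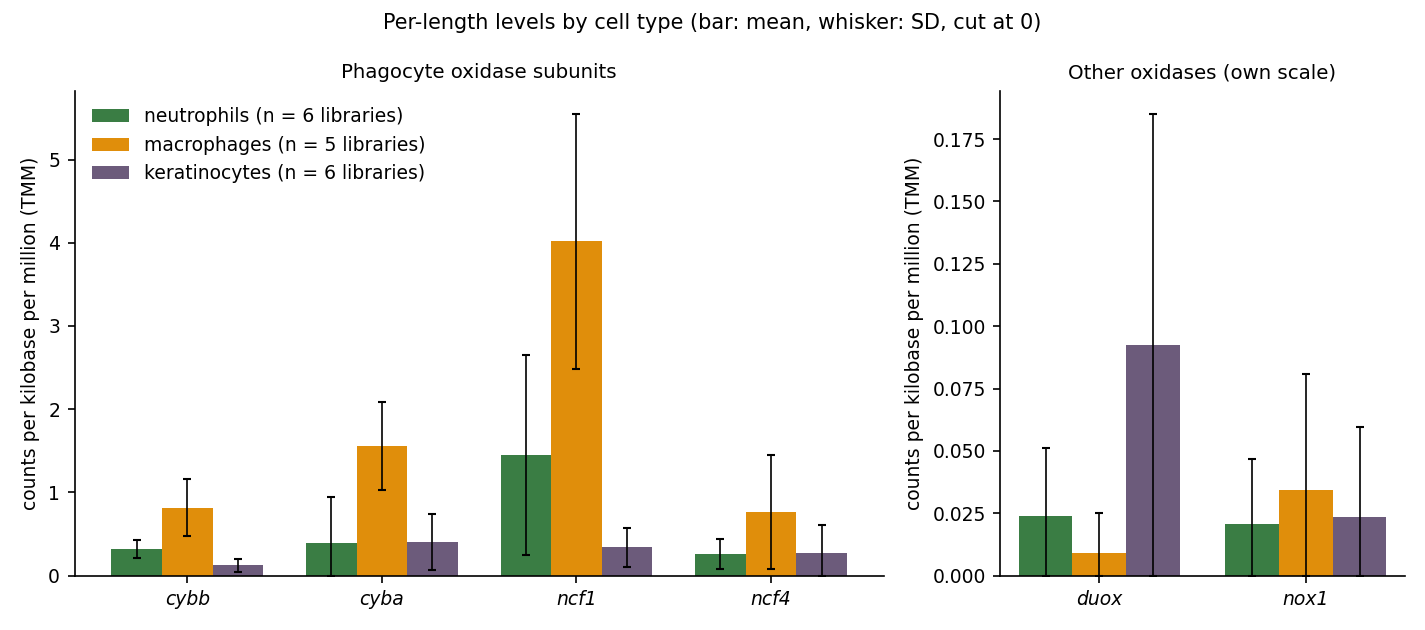
Mean level of each gene in CPM per kilobase of transcript in neutrophil, macrophage and keratinocyte libraries, both constructs together, with whiskers for the SD over libraries. Macrophage bars are the tallest for the 4 phagocyte subunits, while the keratinocyte bar is the tallest for *duox*, which is plotted with *nox1* on a scale of its own.

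The catalytic subunit *cybb* (ENSDARG00000056615) had its highest mean in macrophages, then in neutrophils, then in keratinocytes. Its CPM was 1.55, 1.46 and 0.988 in neutrophil HRasG12V libraries and 0.817, 0.804 and 0.780 in neutrophil HRas control libraries. It was 1.57, 2.59 and 2.85 in macrophage HRasG12V libraries and 1.66 and 3.08 in macrophage HRas control libraries. Keratinocyte libraries held 0.141, 0.609 and 0.561 CPM with HRasG12V and 0.625, 0 and 0.558 CPM with HRas control. The libraries of the 3 cell types did not overlap, although the lowest macrophage library lay only 0.0152 CPM above the highest neutrophil library. *cybb* was higher in macrophages than in keratinocytes by 2.45 on the log2 scale (standard error 0.608), with an adjusted p of 0.0107 in the quasi-likelihood test of edgeR over all 16011 genes. The neutrophil difference from keratinocytes was 1.29 (standard error 0.606, adjusted p = 0.172) and that from macrophages -1.16 (standard error 0.523, adjusted p = 0.25), and neither passed the threshold of 0.05 in edgeR's test. The macrophage call was lost without macrophage HRas control replicate 2 (2.26, adjusted p = 0.108), with batch 1 or 2 left out (adjusted p = 0.0959 and 0.368) and in either construct alone (adjusted p = 0.113 with HRasG12V and 0.249 with HRas control, edgeR).

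Its membrane partner *cyba* (ENSDARG00000018283), which holds the catalytic subunit in place and docks *ncf1*, had 2, 24 and 4 counts in neutrophil HRasG12V libraries and 0 in all 3 neutrophil HRas control libraries. Macrophage libraries held 25, 41 and 11 counts with HRasG12V and 8 and 21 with HRas control. Keratinocyte libraries had 2, 3 and 10 counts with HRasG12V and 2, 0 and 1 with HRas control. Every macrophage library was above every keratinocyte library in CPM, by a margin of 0.00954 CPM at the closest. Relative to depth, macrophages had 3.66 times the summed counts of keratinocytes (exact 95% counting interval 2.21 to 6.41). The ratio of neutrophils to keratinocytes was 1 (0.54 to 1.91). These intervals cover counting error only. The fitted difference between macrophages and keratinocytes was 1.99 (standard error 0.807, adjusted p = 0.187, edgeR) and did not pass, except without normalization (2.81, adjusted p = 0.0463). *cyba* was lower in neutrophils than in macrophages (fitted log2 difference -4.18, adjusted p = 0.00799, edgeR), but the size of that difference rests on the neutrophil HRas control group at 0 and fell to -2.11 with a prior count of 2. Within the HRasG12V groups alone the difference was -1.47 and did not pass (adjusted p = 0.627, edgeR). The call was also lost without macrophage HRas control replicate 2 (-4.15, adjusted p = 0.0565) and with batch 1 or 2 left out (adjusted p = 0.195 and 0.162, edgeR).

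The organiser *ncf1* (ENSDARG00000033735), which carries the other cytosolic subunits to the membrane once it is phosphorylated, was the most abundant of the 6 genes. It had 77, 92 and 29 counts in neutrophil HRasG12V libraries, against 17, 8 and 2 in neutrophil HRas control libraries. Macrophage libraries held 116, 266 and 86 counts with HRasG12V and 24 and 94 with HRas control. Keratinocyte libraries held between 2 and 5 counts in each of the 6. In CPM every macrophage library (3.63 to 11.5) lay above every keratinocyte library (0.281 to 1.52), and the neutrophil libraries (0.520 to 6.63) spanned most of the distance between them. *ncf1* was higher in macrophages than in keratinocytes by 3.49 (standard error 0.411, adjusted p = 2.86e-07, edgeR), the gene with rank 43 by p in that comparison, and the call held in all 17 fits that leave out 1 library and in 15 of 15 other alternatives. It was higher in neutrophils than in keratinocytes by 1.80 (standard error 0.435, adjusted p = 0.00475, edgeR) and lower in neutrophils than in macrophages by -1.69 (standard error 0.350, adjusted p = 0.00215, edgeR). The neutrophil call against keratinocytes was lost without neutrophil HRas control replicate 1 (1.38, adjusted p = 0.0588), and that against macrophages without macrophage HRas control replicate 2 (-1.30, adjusted p = 0.0951, edgeR). With whole batches left out, the first was lost without batch 1 or 3 (adjusted p = 0.259 and 0.0526) and the second without batch 2 (adjusted p = 0.273, edgeR).

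These neutrophil averages join groups that stood apart. With HRasG12V, *ncf1* was higher in neutrophils than in keratinocytes by 3.17 (standard error 0.563, adjusted p = 0.00068, edgeR, with 4.52% of genes called), and the difference from macrophages was -0.99 (standard error 0.421) and did not pass (adjusted p = 0.312). With HRas control, the neutrophil difference from keratinocytes was 0.43 (standard error 0.659, adjusted p = 0.805, edgeR), and *ncf1* was lower in neutrophils than in macrophages by -2.38 (standard error 0.555, adjusted p = 0.0175, edgeR). Macrophages stood above keratinocytes with either construct, by 4.16 with HRasG12V (adjusted p = 8.84e-06) and by 2.81 with HRas control (adjusted p = 0.00778, edgeR). These comparisons within a construct were chosen after the values were seen.

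The regulatory subunit *ncf4* (ENSDARG00000040812), which binds a membrane lipid of phagosomes and stabilises the assembled enzyme, had 5, 12 and 7 counts in neutrophil HRasG12V libraries and 0, 5 and 4 in neutrophil HRas control libraries. It had 43, 45 and 7 counts in macrophage HRasG12V libraries and 3 and 11 in macrophage HRas control libraries. The keratinocyte libraries held 6, 2 and 14 counts with HRasG12V and 0 in all 3 with HRas control. Macrophages had 3.08 times the summed counts of keratinocytes relative to depth (counting interval 1.93 to 5.12), with overlapping libraries. The ratio of neutrophils to keratinocytes was 0.9 (0.509 to 1.62). The fitted difference between macrophages and keratinocytes, 3.72 (standard error 1.21, adjusted p = 0.0729, edgeR), did not pass, and its size depends on the keratinocyte HRas control group at 0. It passed in 4 alternatives: with macrophage HRas control replicate 3 included (adjusted p = 0.0445), without macrophage HRasG12V replicate 3 (4.31, adjusted p = 0.0231), without normalization (4.15, adjusted p = 0.0115) and without a filter on low counts (3.73, adjusted p = 0.0321, edgeR).

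Counted together, 2 of the 4 genes tested (*ncf1* and *cybb*) were called higher in macrophages than in keratinocytes, where 4.97% of all genes were called, 2.65% higher and 2.31% lower. Of the same 4, *ncf1* was called higher in neutrophils than in keratinocytes, where 12.7% of genes were called, 6.34% higher and 6.36% lower. *ncf1* and *cyba* were called lower in neutrophils than in macrophages, where 4.67% of genes were called, 3.42% lower and 1.24% higher. The study itself displays *ncf1* and *cyba* among its macrophage genes from these libraries, so their level in macrophages is not independent evidence of its direction. In libraries made from whole larvae, fewer cells of a type and less RNA per cell cannot be told apart.

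*duox* (ENSDARG00000062632), the epithelial peroxide source, had 2, 5 and 0 counts in neutrophil HRasG12V libraries and 0, 4 and 0 in neutrophil HRas control libraries. Macrophage libraries held 2, 1 and 0 counts with HRasG12V and 0 and 0 with HRas control, and keratinocyte libraries held 0, 2 and 7 with HRasG12V and 2, 0 and 9 with HRas control. Keratinocytes averaged the highest, but 2 of their 6 libraries held no count, and the cell types overlapped. Relative to depth, neutrophils had 0.33 times the summed *duox* counts of keratinocytes (counting interval 0.143 to 0.723) and macrophages 0.0932 times (0.0177 to 0.314). In mean CPM both lay below keratinocytes in each batch. For neutrophils in batch 2 that order came from scaling, with 5 and 4 counts against 2 and 0 in keratinocytes. There, 1 count stood for 0.304 CPM in the keratinocyte HRasG12V library. Most keratinocyte counts, 7 and 9, were in batch 3. Over libraries, the exact two-sided permutation test on log2(CPM + 1) gave p = 0.132 for neutrophils against keratinocytes and p = 0.0758 for macrophages against keratinocytes, unadjusted. Neither was under 0.05. That test ignores the batches, and at these counts it cannot show that a difference is absent. The macrophage libraries all held at most 3 counts, the floor below which a level is read as a bound. Between constructs, keratinocytes had 0.367 ± 0.323 CPM with HRasG12V and 0.558 ± 0.640 CPM with HRas control (SD, n = 3 each, exact permutation p = 1).

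*nox1* (ENSDARG00000087574) was at the floor in 5 of the 6 groups, with no library above 3 counts. The exception was macrophage HRasG12V, with 0, 6 and 3 counts against 0 and 0 in macrophage HRas control. No order of cell types could be read from it, and exact permutation p-values for the cell type pairs lay between 0.535 and 0.848.

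**Figure D3:**
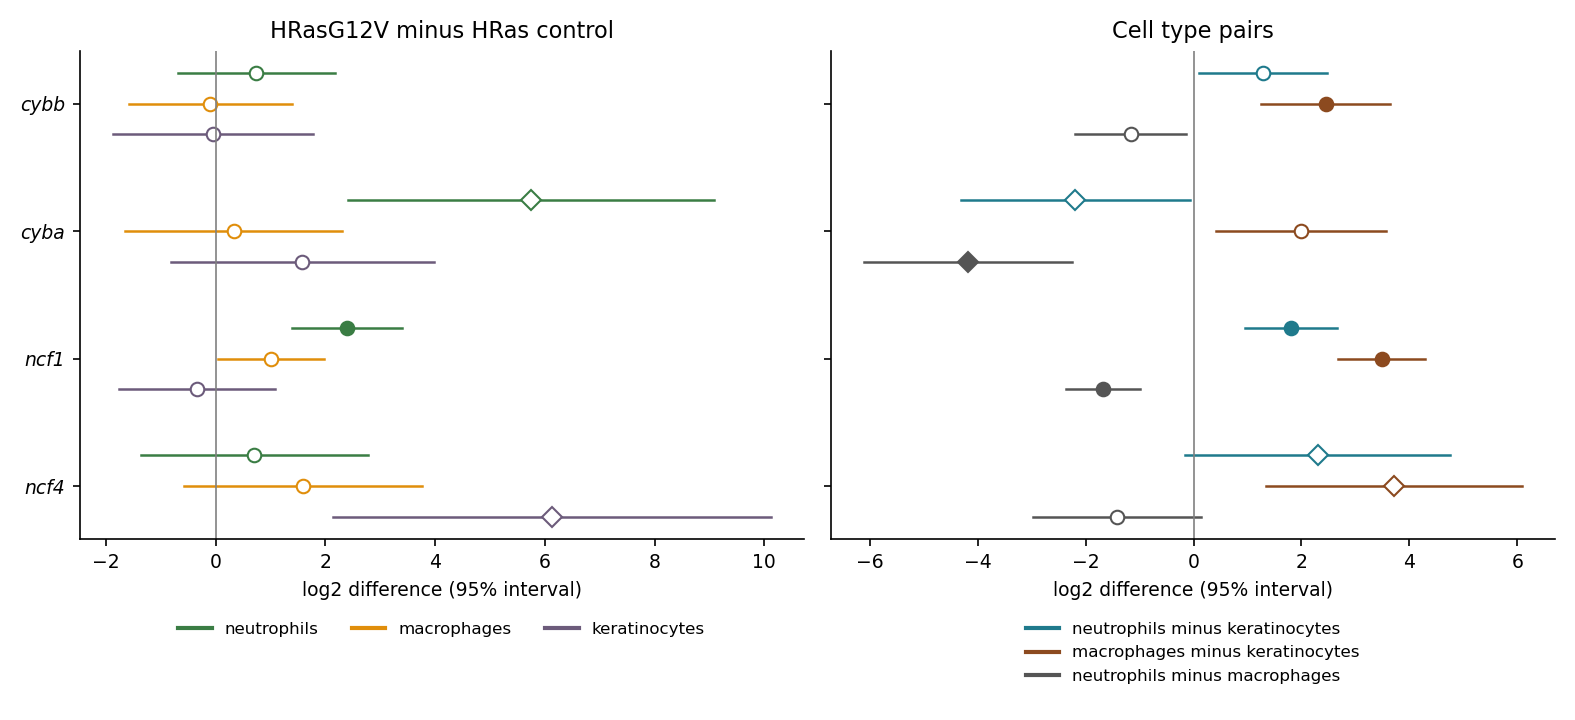
Fitted log2 differences for the 4 genes tested, between constructs in each cell type (left) and between cell types (right). The 95% intervals take a normal quantile and are narrower than edgeR's test. Filled symbols passed an adjusted p of 0.05, and diamonds mark differences that involve a group at 0 counts, whose size depends on the prior count. Of the 12 differences between constructs, 1 is filled, *ncf1* in neutrophils at 2.40.

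Between HRasG12V and HRas control, 1 oxidase gene passed the threshold, *ncf1* in neutrophils. Its CPM was 6.63, 4.64 and 3.58 in neutrophil HRasG12V libraries, against 1.74, 0.585 and 0.520 in neutrophil HRas control libraries. All HRasG12V libraries lay above all HRas control libraries, and HRasG12V was the higher in 3 of 3 batches. *ncf1* rose by 2.40 on the log2 scale (standard error 0.509), passing edgeR's test at an adjusted p of 0.0359 with rank 19 by p among the 16011 genes. In that comparison 24 genes were called, 8 of them higher in HRasG12V (0.05%) and 16 lower (0.0999%), so 1 of 4 oxidase genes tested stands beside 0.15% of all genes. The summed counts, 198 with HRasG12V and 27 with HRas control, gave a ratio of 5.07 relative to depth (counting interval 3.38 to 7.89). An exact permutation test of the 3 against 3 libraries gave p = 0.1, the smallest that this design allows.

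The call was close to the threshold and was lost in several other fits. The difference stayed between 1.86 and 3.27 when each of the 17 libraries was left out, but the adjusted p was above 0.05 in 7 of these fits: 0.369, 0.0602 and 0.149 without neutrophil HRasG12V replicates 1, 2 and 3, 0.209 and 0.0655 without neutrophil HRas control replicates 2 and 3, and 0.058 and 0.0716 without macrophage HRasG12V replicates 1 and 2 (edgeR). Without neutrophil HRas control replicate 3, the library low in neutrophil markers, the difference was 2.34. With the 6 neutrophil libraries fitted alone it was 2.46 (adjusted p = 0.264), and with no replicate block 2.31 (adjusted p = 0.0676, edgeR).

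The 4 neutrophil markers, 2 of them lower in neutrophils than in keratinocytes, moved in the same libraries. Their sum did not overlap between neutrophil HRasG12V (26.5 to 62.6 CPM) and HRas control (2.86 to 23.7 CPM) libraries, and *lyz* was called higher with HRasG12V, by 1.94 (standard error 0.416, adjusted p = 0.0378, edgeR), the only one of the 4 markers to pass. The 9 macrophage markers summed to 6.17 to 7.52 CPM with HRasG12V and 7.02 to 8.17 CPM with HRas control. Per 100 CPM of neutrophil markers, *ncf1* was 10.6, 8 and 13.5 CPM in HRasG12V libraries and 7.33, 3.16 and 18.2 CPM in HRas control libraries. On that scale, chosen after the values were seen, the constructs overlapped. Without neutrophil HRas control replicate 3 they lay apart only narrowly, with 7.33 CPM in HRas control replicate 1 and 8 CPM in HRasG12V replicate 2. HRas control libraries ran from 3.16 to 18.2 CPM and HRasG12V libraries from 8 to 13.5 CPM. The highest value, in neutrophil HRas control replicate 3, rested on 2 counts of *ncf1* over 2.86 CPM of markers. Set against *lyz* alone, also a choice made after the values were seen, HRas control replicate 1 overlapped too. It held 1.74 CPM of *ncf1* beside 14.7 CPM of *lyz*, and HRasG12V replicate 2 held 4.64 CPM beside 46.3 CPM. HRas control replicate 2, with 0.585 CPM of *ncf1* beside 14.3 CPM of *lyz*, stayed below the HRasG12V libraries. Per 100 CPM of macrophage markers, *ncf1* was 103, 61.7 and 58 CPM in neutrophil HRasG12V libraries. In neutrophil HRas control libraries it was 21.2, 7.69 and 7.41 CPM on that second scale, without overlap. The macrophage marker sums differed little between these libraries and were no higher than in keratinocyte libraries (6.79 to 10.6 CPM). The second scale therefore nearly repeats the CPM of *ncf1* and is no separate result. Some markers of other tissues also lay apart between these libraries. Both photoreceptor markers, *gnat2* and *pde6c*, were called lower with HRasG12V (adjusted p = 0.00309 and 0.00893, edgeR), and their sum was 5.43 to 9.18 CPM with HRasG12V and 18.6 to 89.4 CPM with HRas control. The 1 neuron marker was at 89.4 to 146 CPM with HRasG12V and 82.7 to 84.9 CPM with HRas control, but its log2 difference of 0.37 did not pass in edgeR's test. The sums of keratinocyte, skeletal muscle, thyroid, gut and liver, endothelium and erythroid markers overlapped between the constructs. The part of the content of neutrophils or of other tissues in the *ncf1* difference was not tested further.

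**Figure D4:**
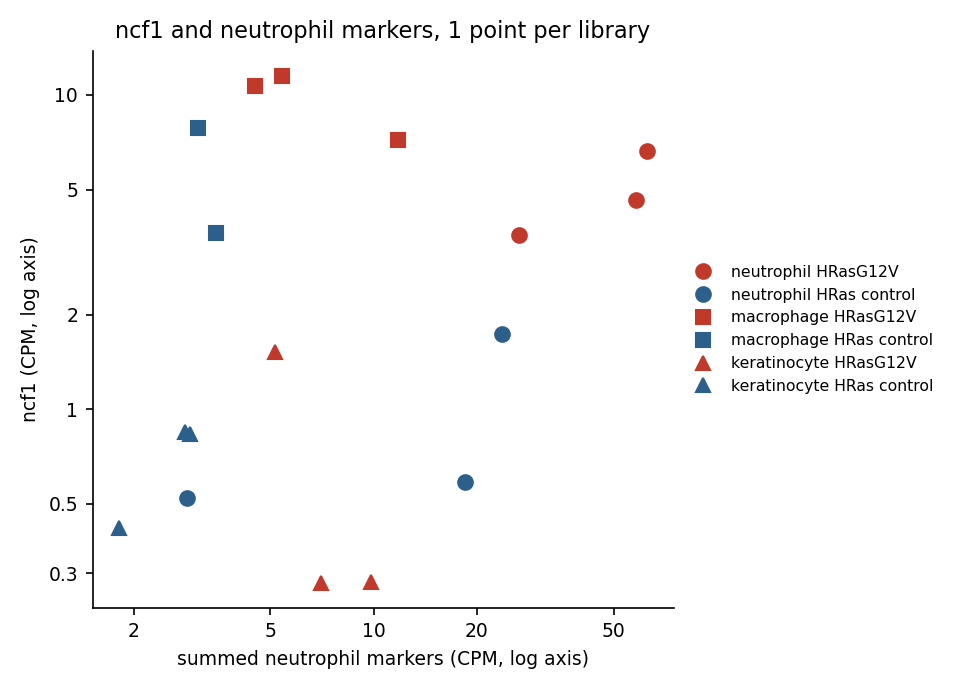
*ncf1* against the sum of 4 neutrophil markers in each of the 17 libraries, both in CPM on log axes, with shapes for cell types and colours for constructs. Neutrophil HRasG12V libraries are the highest on both axes among neutrophil libraries, neutrophil HRas control replicate 3 lies among the keratinocyte libraries at 2.86 CPM of markers, and the macrophage libraries are high in *ncf1* at 3.08 to 11.7 CPM of neutrophil markers.

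The other subunits did not pass in neutrophils. *cyba* had a mean of 0.626 ± 0.532 CPM in neutrophil HRasG12V libraries and no count in any of the 3 neutrophil HRas control libraries (SD, n = 3), whose floor of 3 counts is 0.306, 0.219 and 0.780 CPM. Against the mean of these floors the mean level was at least 1.44-fold higher with HRasG12V, although it exceeded the floor of its own batch in only 1 of 3 batches, and the difference did not pass (adjusted p = 0.266, edgeR, unadjusted p = 0.00197). *cybb* averaged 1.33 ± 0.303 CPM with HRasG12V and 0.800 ± 0.0186 CPM with HRas control (SD, n = 3 each), without overlap and with HRasG12V higher in 3 of 3 batches. Its fitted difference of 0.74 (95% interval -0.69 to 2.17, adjusted p = 0.939, edgeR) did not pass. *ncf4* averaged 0.633 ± 0.218 CPM with HRasG12V and 0.469 ± 0.528 CPM with HRas control, and these libraries overlapped. Summed over the 6 genes, neutrophil libraries held 5.93 to 9.13 CPM with HRasG12V and 2.19 to 2.55 CPM with HRas control, and *ncf1* made up most of the sum with HRasG12V.

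In macrophages, 0 of 16011 genes passed in edgeR's test (0% called, 484 genes at an unadjusted p under 0.05, and 3 genes called by DESeq2), so none of the 4 genes was called. *ncf1* averaged 9.79 ± 2.27 CPM with HRasG12V (SD, n = 3) and 5.73 ± 2.97 CPM with HRas control (SD, n = 2), a fitted difference of 1.00 (95% interval 0.03 to 1.98, adjusted p = 1, edgeR) with overlapping libraries. That interval takes a normal quantile and is narrower than edgeR's test, in which 0 of the 4 genes had an unadjusted p under 0.05 here. *ncf4* averaged 2.16 ± 1.70 CPM with HRasG12V and 0.685 ± 0.326 CPM with HRas control, with a fitted difference of 1.59 (adjusted p = 1, edgeR). These adjusted p-values depended on the fit. Over 13 alternatives the lowest was 0.0535 for *ncf1* (differences 0.61 to 1.79) and 0.199 for *ncf4* (edgeR or DESeq2), with no call. *cybb* and *cyba* were near equal in their means, with 2.34 CPM of *cybb* and 1.67 CPM of *cyba* in HRasG12V libraries and 2.37 CPM of *cybb* and 1.48 CPM of *cyba* in HRas control libraries. The 95% intervals of the log2 differences, -1.59 to 1.39 for *cybb* and -1.65 to 2.30 for *cyba*, hold changes of 2-fold in either direction. Marker sums of some other cell types lay apart in the same libraries, and those of others overlapped. The 9 keratinocyte markers summed to 1899 to 2577 CPM with HRasG12V and 1173 to 1279 CPM with HRas control, with 8 of 9 higher, 3 at an unadjusted p under 0.05 and none called. Without overlap too, the 4 neutrophil markers summed to 4.51 to 11.7 CPM with HRasG12V and 3.08 to 3.48 CPM with HRas control, the 3 skeletal muscle markers to 266 to 386 CPM with HRasG12V and 211 to 236 CPM with HRas control, and the 3 gut and liver markers to 1.51 to 2.94 CPM with HRasG12V and 0.908 to 1.08 CPM with HRas control. None of the neutrophil or gut and liver markers tested had an unadjusted p under 0.05 here (edgeR). The sums of macrophage, photoreceptor, endothelium, thyroid, neuron and erythroid markers overlapped between the constructs. Of the neutrophil markers, *lyz* was at 1.75, 2.76 and 0 CPM with HRasG12V and at 0.303 and 1.33 CPM with HRas control. The library without *lyz*, HRasG12V replicate 3, was the one whose neutrophil markers summed to 11.7 CPM. The part of any of these markers in the *ncf1* and *ncf4* differences was not tested.

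Keratinocytes, the cells in which Krt4 drove the constructs, had 42 genes called (0.262% of all tested, 0.256% higher and 0.00625% lower), and no oxidase gene was among them. *ncf4* had 0.845, 0.609 and 0.982 CPM in the HRasG12V libraries and 0 in all 3 HRas control libraries, whose floor is 0.625, 0.849 and 0.419 CPM. Against the mean of these floors the mean level was at least 1.29-fold higher with HRasG12V, above the floor of its own batch in 2 of 3 batches, and the difference did not pass (adjusted p = 0.402, unadjusted p = 0.00517, edgeR). *cyba* averaged 0.632 ± 0.321 CPM with HRasG12V and 0.185 ± 0.212 CPM with HRas control, the second at the floor, with overlapping libraries. *cybb* averaged 0.437 CPM with HRasG12V and 0.395 CPM with HRas control, and *ncf1* 0.695 CPM with HRasG12V and 0.700 CPM with HRas control, and each overlapped between the constructs. The 4 neutrophil markers, 2 of them lower in neutrophils than in keratinocytes, summed to 5.17 to 9.86 CPM in keratinocyte HRasG12V libraries. In keratinocyte HRas control libraries their sum was 1.81 to 2.92 CPM. *lyz* was at 1.13, 0.913 and 0.982 CPM with HRasG12V and at 0.417, 0 and 0.279 CPM with HRas control. Most of each sum thus came from the other neutrophil markers, and none of the neutrophil markers was called. The 3 skeletal muscle markers summed to 457 to 603 CPM with HRasG12V and 144 to 252 CPM with HRas control. Of these 3, 2 were called higher with HRasG12V (adjusted p at most 0.05, edgeR). The 2 endothelium markers summed to 4.21 to 8.83 CPM with HRasG12V and 0.849 to 2.08 CPM with HRas control, and the 2 thyroid markers to 0.912 to 1.22 CPM with HRasG12V and 0 to 0.849 CPM with HRas control, again without overlap. The thyroid sums with HRas control were at or below the floor, and at least 1 of the 2 genes was at 0 in every keratinocyte library. The sums of keratinocyte, macrophage, photoreceptor, gut and liver, neuron and erythroid markers overlapped between the constructs. The part of any of these in the *ncf4* counts was not tested.

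The HRasG12V differences were then compared between cell types, since a gene that passes in 1 cell type and not in another need not differ between them. No oxidase gene passed in these comparisons, in each of which 2 genes were called (0.0125%). The *ncf1* difference was larger in neutrophils than in keratinocytes by 2.74 (standard error 0.907, unadjusted p = 0.00485, adjusted p = 0.69, edgeR) and than in macrophages by 1.39 (standard error 0.692, adjusted p = 1), and neither passed. Among the others, the smallest unadjusted p was 0.0107, for *cyba* in neutrophils against macrophages (adjusted p = 1, edgeR).

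Of the enzyme's partners, 1 gene was called between cell types, and as a set they followed no order. Against keratinocytes, 2 of the 4 tested were higher in macrophages and 2 lower. That 1 of 4 called stands beside 4.97% of all genes for macrophages against keratinocytes and 4.67% for neutrophils against macrophages. Of 12 partner names, 8 matched a gene in the files, 4 were tested, and *rac2*, which encodes the GTPase that activates the oxidase in phagocytes, was called higher in macrophages than in keratinocytes by 2.30 (standard error 0.364, adjusted p = 3.99e-05, edgeR) and lower in neutrophils than in macrophages by -2.58 (standard error 0.352, adjusted p = 4.11e-06, edgeR). It averaged 2.39 ± 1.87 CPM in neutrophil libraries (SD, n = 6), 14.8 ± 5.84 CPM in macrophage libraries (SD, n = 5) and 2.28 ± 1.42 CPM in keratinocyte libraries (SD, n = 6), and it was called in both comparisons within each construct. *rac1a*, a Rac of all tissues, averaged between 3.97 and 5.11 CPM, and *noxo1a*, an organiser of Nox1 in mammals, between 0.370 and 1.49 CPM. The fourth partner tested, *cybc1*, averaged 0.446 CPM in neutrophil, 0.394 CPM in macrophage and 0.151 CPM in keratinocyte libraries, with overlap. None of these 3 genes passed. No partner passed between constructs. The median log2 difference of the 4 was 0.60 in neutrophils, 0.55 in macrophages and 0.34 in keratinocytes. For all genes tested it was 0.04 in neutrophils, 0.03 in macrophages and 0.01 in keratinocytes.

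Of 7 names for enzymes and sensors of superoxide and hydrogen peroxide, 4 were tested and none passed in any of the comparisons. *sod1*, the cytosolic superoxide dismutase, averaged 2.92 CPM in neutrophil, 4.16 CPM in macrophage and 2.47 CPM in keratinocyte libraries. *sod2*, its mitochondrial counterpart, averaged 2.73 CPM in neutrophil, 1.27 CPM in macrophage and 2.08 CPM in keratinocyte libraries. Catalase, *cat*, averaged 2.30 CPM in neutrophil, 3.17 CPM in macrophage and 1.80 CPM in keratinocyte libraries. *lyn*, a kinase that in zebrafish senses the hydrogen peroxide of wounds in leukocytes, averaged 2.67 CPM in neutrophil, 3.59 CPM in macrophage and 1.99 CPM in keratinocyte libraries. Their median log2 difference between constructs was -0.10 in neutrophils, 0.41 in macrophages and 0.16 in keratinocytes, where the medians of all genes tested lay between 0.01 and 0.04.

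Of the 6 genes, *ncf1* alone had a mean of at least 20 counts, enough to ask which genes it resembled. Over the 17 libraries, among 8321 genes, the 3 whose log2 CPM correlated most with it were *RHOG* (r = 0.948), *SPI1* (r = 0.916) and *LCP1* (r = 0.912). *SPI1* encodes a transcription factor of myeloid cells and *LCP1* an actin-bundling protein of leukocytes. These libraries share cell types and batches, and the correlations describe that pattern only.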

How the data were processed

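Reads, single-end, were mapped by the authors to GRCz10 using Bowtie 1.1.1. RSEM 1.2.20 gave the deposited values, namely an expected count, a TPM and an FPKM per gene, beside its effective length, with no further normalization. Libraries were amplified for 20 cycles without molecular identifiers, so counting intervals cover counting error only. The 18 libraries fall into 6 groups of 3 by the labels, and the batch label, which equals the replicate number, pairs them (the paper states 3 collection days). After group means were removed, libraries of the same cell type and batch correlated with r between -0.072 and 0.29 over 8716 genes.

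Macrophage HRas control replicate 3 (16990 counts) was left out. The expected counts were rounded, filtered with filterByExpr, scaled by TMM and fitted with edgeR 4.0.16 (R 4.3.3) by a quasi-likelihood model of 6 groups and the batch as a block over 17 libraries, with a prior count of 0.125. P-values were adjusted by Benjamini-Hochberg over 16011 genes, with a threshold of 0.05. Standard errors are the log2 difference divided by the square root of F. Cell type differences average both constructs. The deposited TPM and FPKM were not tested; per-length levels were computed from the expected counts and the effective lengths. The floor is 3 counts per library, and folds against a group at 0 are bounds set by it. The model was tested on simulated data.

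The genes named are the oxidase genes themselves, at most 4 of each further list by mean count, and the 3 genes most correlated with a member that had a mean of at least 20 counts. The members and lists were chosen with earlier results of these data known. Alternatives were DESeq2 1.42.0 and its size factors, no normalization, other filters, no removal of the left-out library, removal of the 10 most abundant features, no block, another prior count, unrounded counts, only the libraries compared, and each library or batch left out. One gene of the partner list is not reported here. Symbols that matched several genes were not used here, and no coordinates or sequences are given because no annotation of the build was used here.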

Additional observations from a re-analysis of the deposited data

How the results depend on the processing

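No result changed direction past the threshold. *ncf1* in macrophages against keratinocytes was called in 15 of 15 alternatives and in all 17 fits without 1 library. The neutrophil *ncf1* difference between constructs, called in the reported fit, lay between 2.12 and 2.98 over 13 alternatives (adjusted p between 0.00203 and 0.264, from edgeR in 12 of them and DESeq2 in 1) and was not called in 6 of them: no normalization beyond library size (adjusted p = 0.239), no replicate block (0.0676), only the 6 neutrophil libraries (0.264) and batches 1, 2 or 3 left out (0.0774, 0.178 and 0.145). In each of those 6 the oxidase genes called in neutrophils fell to 0. No other call of an oxidase gene was lost without the replicate block. The filter at a mean of 50 counts left no oxidase gene to test (*ncf1* had a mean of 48.9), so it gave no value for them. Without normalization the median log2 difference of all genes shifted by between -0.30 and 0.84 relative to TMM, against at most 0.03 with DESeq2's size factors, and differences under that scaling are relative to this shift.

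Oxidase genes called between cell types were 0 for neutrophils against keratinocytes with batch 1 or 3 left out or in HRas control alone, 1 for macrophages against keratinocytes with batch 1 or 2 left out or in either construct alone and 4 without normalization, and for neutrophils against macrophages 0 with batch 2 left out or in HRasG12V alone and 1 with batch 1 left out. Leaving out 1 library gave 0 to 1 called in neutrophils between constructs, 0 to 1 for neutrophils and 1 to 3 for macrophages against keratinocytes, and 0 to 2 for neutrophils against macrophages.

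Counts of all genes called between constructs changed as follows. In keratinocytes they were 27 without normalization, 94 without a filter and 20 to 52 without 1 library. In neutrophils they were 42 with all 18 libraries, 10 without normalization, 112 without a filter, 13 at a mean of 50 counts, 52 by DESeq2, 1 with only the libraries compared, 55 without batch 2 and 2 to 35 without 1 library. In macrophages they were 2 without normalization, 13 without a filter, 3 by DESeq2, 249 with only the libraries compared, and 2 and 7 without batches 1 and 2, and 0 without any 1 library. The cause was not tested.

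Between cell types, neutrophils against keratinocytes had 925 genes called without normalization, 724 in HRasG12V alone, 734 in HRas control alone, and 1144, 1243 and 1106 without batches 1, 2 and 3. Macrophages against keratinocytes had 1228 without normalization, 401 at a mean of 50 counts, 386 in HRasG12V alone, 249 in HRas control alone, 378 and 282 without batches 1 and 2, and 415 to 985 without 1 library. Neutrophils against macrophages had 375 without normalization, 346 in HRasG12V alone, 209 in HRas control alone, 303 and 341 without batches 1 and 2, and 356 to 830 without 1 library.

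For the HRasG12V effect compared between cell types, neutrophils against keratinocytes had 10 genes with all 18 libraries, 6 with DESeq2's size factors, 7 without normalization, 1 without the 10 most abundant features, 54 without a filter, 0 at a mean of 50 counts, 1 with no replicate block, 9 by DESeq2, 4 with only the libraries compared, 22 without batch 1 and 0 to 17 without 1 library. Macrophages against keratinocytes had 0 without the 10 most abundant features, 11 without a filter, 0 at a mean of 50 counts, 6 with only the libraries compared, 8 without batch 2 and 0 to 3 without 1 library. Neutrophils against macrophages had 13 with all 18 libraries, 11 without normalization, 40 without a filter, 0 at a mean of 50 counts, 0 with no replicate block, 8 by DESeq2, 0 with only the libraries compared, 11, 6 and 7 without batches 1, 2 and 3, and 0 to 11 without 1 library.

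Depth limited the rest. Between 385201 and 2623922 counts per library lay outside the 10 most abundant features, and 3 counts stood for between 0.13 and 0.913 CPM. Of the 6 oxidase genes, 5 had a mean under 20 counts, so levels of groups at 0 are bounds. No cell type difference of *duox* or *nox1* had an exact permutation p under 0.05, which at these counts does not show that they are equal.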
